A study of Homo sapiens with 6 samples.

Results

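The ATF4 pathway genes described here are 10 of the 60671 genes listed in the count files: the transcription factors *ATF4*, *ATF5*, *ATF3*, *DDIT3*, *CEBPB* and *CEBPG* and the effectors *TRIB3*, *CHAC1*, *DDIT4* and *SESN2*. They were selected with their measured difference between the groups below already known, so their values, intervals and calls from the fit over all genes are a description only, are no independent test of that difference and support nothing further. Expression was measured in K562, a human chronic myeloid leukemia line, here 1 clone with a doxycycline-inducible Flag-NLS-M.CviPI-Lamin-B1 fusion, which joins a GpC methyltransferase to a lamina protein. One group of 3 cultures received 0.1% DMSO as vehicle for 72 h, and the other group of 3 received 1 µM GSK343, an inhibitor of the H3K27 methyltransferase EZH2 (EZH2i), for the same time. The DMSO content of the GSK343 cultures is not stated, so whether the groups match in vehicle is unknown. Both groups also received 1 µg/mL doxycycline during the last 24 h, so the induced fusion is present on each side of the comparison and nothing here describes cells without it. The comparison asks which transcripts differ in level once EZH2 activity is blocked.

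ATF4 is the central transcription factor of the integrated stress response. Stress kinases phosphorylate the initiation factor eIF2, which lowers general protein synthesis but lets ribosomes reach the coding sequence of *ATF4* past short reading frames upstream of it. The protein then switches on genes for amino acid supply, further transcription factors of the same bZIP class and effectors that restrain growth signalling, so the level of the *ATF4* transcript alone does not give the level of the protein.

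Libraries were made from the polyadenylated end of transcripts, and reads on genes numbered 6327544, 8711246 and 8987768 in the DMSO cultures and 7273739, 7913358 and 6926167 in the EZH2i cultures, in the order of replicates 1, 2 and 3, which is kept for all values below. Levels are given as CPM, reads on a gene per 1000000 reads on the tested genes after scaling of the libraries (TMM). A transcript gives reads near its end whatever its length, so CPM is not divided by length. One library stood apart: reads on no annotated gene made up 12.7% of the listed reads in EZH2i replicate 3 and from 7.43% to 8.51% in the other libraries, so the values of the 10 genes and the calls in the lists are also given without it. All 10 genes had at least 10 reads in every library, the lowest count being 105, and all passed the expression filter.

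As a check on the cells, 14 of 15 erythroid markers that K562 cells carry passed the filter, with *GYPB* the most abundant. Their summed level was 2090, 1970 and 2110 CPM in DMSO and 2340, 2220 and 2240 CPM in EZH2i. Markers of other blood and tissue cells summed to 176, 179 and 180 CPM in DMSO and 215, 195 and 194 CPM in EZH2i. Of these 11 markers, 6 were tested and 3 were called higher, *MS4A1* had no read, and the most abundant was *CD3D*. *COL1A1* (log2 fold change 1.90, adjusted p = 0.00424, edgeR), *LYZ* (0.62, adjusted p = 0.0426, edgeR) and *CD3D* (0.46, adjusted p = 0.0309, edgeR) were the called ones. Among the erythroid markers the called genes were *HBZ* (1.15, adjusted p = 6.14e-05, edgeR), *HBG2* (0.58, adjusted p = 0.0251, edgeR) and *ALAS2* (0.50, adjusted p = 0.0269, edgeR), all higher; the count of *HBG2* is uncertain because of its near-identical copy *HBG1*, which lay on the other side of 0 (-0.39, adjusted p = 0.444, edgeR), at -0.10 without EZH2i replicate 1, -0.81 without EZH2i replicate 2 and -0.26 without DMSO replicate 2. Of the 14 tested erythroid markers 6 were below 0, and the median was 0.08. *COL1A1* had only 8, 11 and 19 reads in DMSO beside 30, 49 and 55 in EZH2i, and it was not tested under the filter of at least 10 counts in every library. Of these 6 called markers, *COL1A1* and *HBZ* were called in all 6 fits without 1 library, and *LYZ* in 0 of them (adjusted p from 0.053 to 0.16, edgeR), and its call was also lost with DESeq2. The calls of *HBG2*, *ALAS2* and *CD3D* were lost without each of the DMSO libraries, and that of *CD3D* also without EZH2i replicate 1. *HBA1* (0.44, adjusted p = 0.0714, edgeR) was called higher without EZH2i replicate 3, with no filter and with the replicate block, and it stood at 0.25 without EZH2i replicate 1. Among all tested genes 3.34% were called higher, and neither marker list was tested against that share. The part of either marker list in the values of the ATF4 pathway genes was not tested.

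All 10 genes had a log2 fold change below 0 in EZH2i against DMSO, with a median of -0.42, beside a median of -0.0002 over the 12364 genes tested. A gene is called when its adjusted p is under 0.05 in edgeR's quasi-likelihood test over all genes tested, with Benjamini-Hochberg adjustment. By that rule 4 of the 10 were called lower, the transcription factors *ATF5* and *CEBPG* and the effectors *TRIB3* and *DDIT4*, where 0.922% of all tested genes were called lower. None of the 10 was called higher, at an unadjusted p under 0.05 or with DESeq2 or limma-voom either, where 3.34% of all tested genes were called higher by edgeR, 2.0% by DESeq2 and 3.22% by limma-voom, and 10.9% were higher at an unadjusted p under 0.05. In 6 of the 10, every EZH2i library lay under every DMSO library, as in 11.1% of all tested genes, and in 0 of the 10 every EZH2i library lay over every DMSO library, as in 13.3%. Since the genes were selected on this contrast, nothing is read from these counts. Without EZH2i replicate 3 the called genes were 3, *ATF5*, *CEBPG* and *TRIB3*, beside 0.82% of all genes tested there called lower, and the median was -0.37. Without DMSO replicate 1 they were 2, *ATF5* and *TRIB3*, beside 0.258%, with a median of -0.37. The log2 fold changes without EZH2i replicate 3 were 0.07 for *ATF4*, -1.42 for *ATF5*, -0.005 for *ATF3*, -0.33 for *DDIT3*, -0.41 for *CEBPB*, -0.75 for *CEBPG*, -0.80 for *TRIB3*, -0.29 for *CHAC1*, -0.47 for *DDIT4* and -0.25 for *SESN2*.

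**Figure D1:**
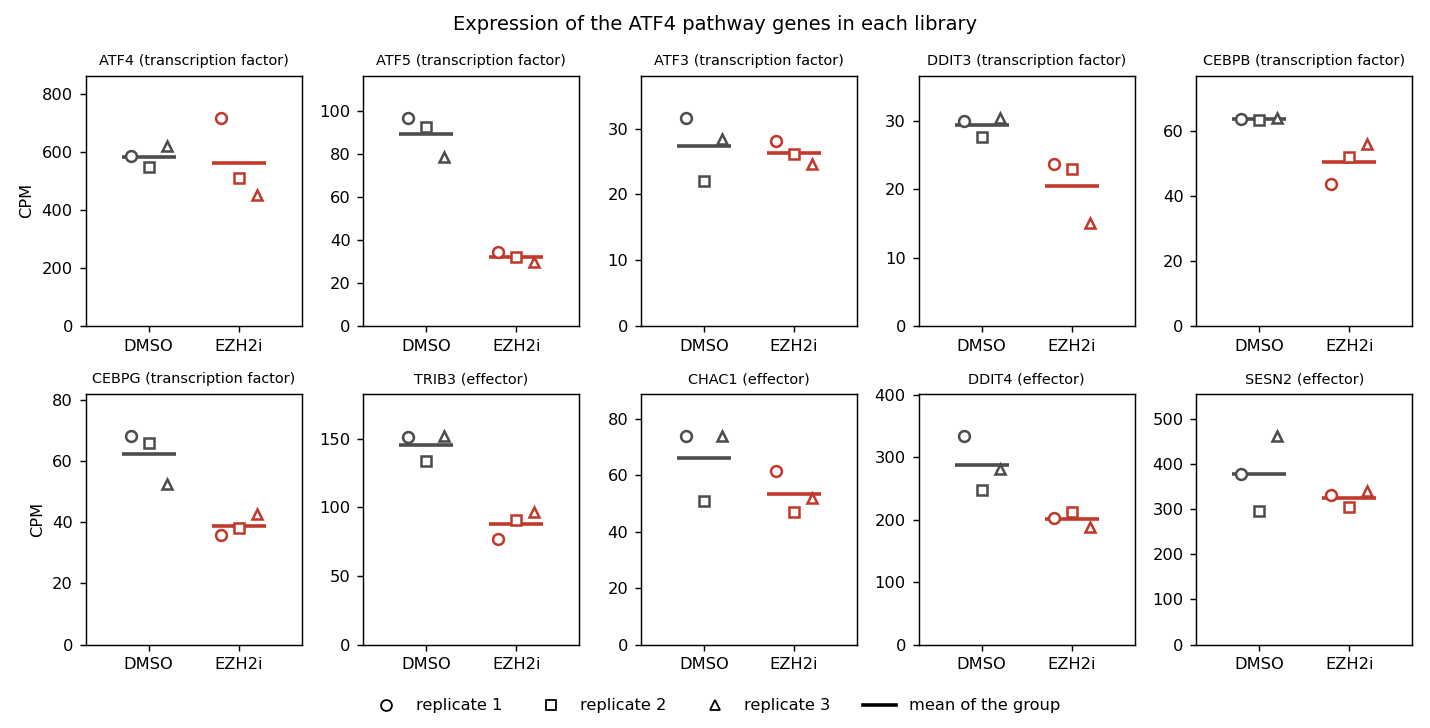
Level of each gene in CPM (vertical axes, each from 0) in the 3 DMSO and 3 EZH2i libraries, with symbols for replicates and a line for the mean of the group. The EZH2i libraries of *ATF5* sit between 29.8 and 34.3 CPM, under all DMSO libraries, while those of *ATF4* spread from 452 to 718 CPM around the DMSO libraries.

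*ATF4* (ENSG00000128272; GRCh38 chromosome 22, 39519695 to 39522683, plus strand) encodes the activator after which the pathway is named. Its level was 585, 547 and 619 CPM in the DMSO libraries and 718, 511 and 452 CPM in the EZH2i libraries. The groups overlapped, because EZH2i replicate 1 was the highest and EZH2i replicate 3 the lowest of the 6 libraries. The mean was 584 ± 36.0 CPM in DMSO and 561 ± 139 CPM in EZH2i (SD, n = 3 each), so the spread among EZH2i libraries, 24.9% of their mean, exceeded the difference. The log2 fold change was -0.06 (standard error 0.14, 95% interval -0.35 to 0.23), and its sign rested on single libraries: it was -0.10 without DMSO replicate 2, -0.01 without DMSO replicate 3, -0.27 without EZH2i replicate 1, 0.0025 without EZH2i replicate 2 and 0.07 without EZH2i replicate 3. The annotation names 4 pseudogenes of *ATF4* elsewhere in the genome. The one with the most reads, *ATF4P3*, had from 1 to 9 reads a library, and reads that align equally well to several places are in no gene's count.

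*ATF5* (ENSG00000169136; chromosome 19, 49928702 to 49933935, plus strand) encodes a bZIP factor of the same family that is itself controlled by upstream reading frames and is known for a part in the mitochondrial stress response. It had 97.0, 92.5 and 78.6 CPM in the DMSO libraries and 34.3, 32.3 and 29.8 CPM in the EZH2i libraries. The lowest DMSO library was thus above the highest EZH2i library, and the spread within either group was small beside the gap. Means were 89.4 ± 9.55 and 32.1 ± 2.24 CPM (SD, n = 3 each). On the log2 scale the fold change was -1.47 (standard error 0.12, 95% interval -1.73 to -1.22), or a level 2.78-fold lower. This was the lowest log2 fold change of the 10 genes, it ran from -1.56 to -1.41 across 6 fits without 1 library each, and the gene was called in each of them. The opposite-strand genes *NUP62* and *IL4I1* share 565 and 75 exon bases with *ATF5*, none of them in its last exon, and the strand setting of the counting is not given in the sources used here, so its count is uncertain to that extent. For *NUP62* the log2 fold change was -0.11 (adjusted p = 0.673, edgeR), with -0.01 without EZH2i replicate 3, -0.23 without EZH2i replicate 1 and -0.07 without DMSO replicate 1, and *IL4I1* had at most 3 reads in a library. The microRNA gene *MIR4751*, which lies on the same strand within the last exon, had 0 reads.

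*ATF3* (ENSG00000162772; chromosome 1, 212565334 to 212620777, plus strand) encodes an early-induced bZIP factor that acts mostly as a repressor. Its level was 31.7, 22.1 and 28.4 CPM in the DMSO libraries and 28.2, 26.2 and 24.6 CPM in the EZH2i libraries. All EZH2i libraries lay inside the range of the DMSO libraries. Its log2 fold change was -0.05 (standard error 0.15, 95% interval -0.36 to 0.26), and it was 0.06, -0.19 and -0.02 without DMSO replicates 1, 2 and 3, -0.10 without EZH2i replicate 1 and -0.005 without EZH2i replicate 3. It had 172 to 250 reads a library, and the SD was 17.9% of the mean in DMSO and 6.72% in EZH2i.

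*DDIT3* (ENSG00000175197; chromosome 12, 57516588 to 57521737, minus strand) encodes CHOP, a C/EBP-related factor tied to cell death under lasting stress. It had 30.0, 27.7 and 30.5 CPM in the DMSO libraries and 23.7, 22.9 and 15.0 CPM in the EZH2i libraries. The groups did not overlap, and EZH2i replicate 3, the library that stood apart, was the lowest by a wide margin, with 105 reads. The log2 fold change was -0.51 (standard error 0.16, 95% interval -0.85 to -0.17) and the gene was not called. Without EZH2i replicate 3 the value was -0.33, a fold smaller in size, and without EZH2i replicate 1 it was -0.62 and called. Exons of *MARS1* on the opposite strand share 355 bases with those of *DDIT3*, 68 of them in its last exon, and the log2 fold change of *MARS1* was -0.63 (adjusted p = 0.00413, edgeR); reads on the shared bases, 27.2% of the exon bases of *DDIT3*, cannot be assigned to either gene without the strand setting. *MBD6*, also on the opposite strand, shares 58 bases and stood at -0.10 on the log2 scale (adjusted p = 0.775, edgeR; from -0.20 without DMSO replicate 1 to 0.08 without DMSO replicate 2, and -0.19 without EZH2i replicate 3), while a gene without a symbol on the same strand (ENSG00000285133) shares 105 bases and had 0 reads.

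*CEBPB* (ENSG00000172216; chromosome 20, 50190830 to 50192668, plus strand) encodes C/EBP beta, a partner of ATF4 on composite DNA elements. Its level was 63.8, 63.5 and 64.3 CPM in the DMSO libraries and 43.9, 52.1 and 56.1 CPM in the EZH2i libraries. The SD was 0.652% of the mean in DMSO and 12.3% in EZH2i, and the groups did not overlap. The log2 fold change was -0.33 (standard error 0.12, 95% interval -0.58 to -0.09), and the gene was not called in the fit of all libraries or in any of the 6 fits without 1 library. The antisense gene *CEBPB-AS1* shares 231 bases of the only exon and had from 6 to 27 reads a library (log2 fold change -0.78, adjusted p = 0.329, edgeR, and -0.42 without DMSO replicate 3).

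*CEBPG* (ENSG00000153879; chromosome 19, 33373685 to 33382686, plus strand) encodes C/EBP gamma, which pairs with ATF4 and lacks an activation domain of its own. It had 68.3, 66.0 and 52.5 CPM in the DMSO libraries and 35.8, 38.2 and 42.8 CPM in the EZH2i libraries. Every EZH2i library was under the lowest DMSO library, replicate 3. Means were 62.3 ± 8.53 and 38.9 ± 3.59 CPM (SD, n = 3 each), and the log2 fold change was -0.68 (standard error 0.13, 95% interval -0.95 to -0.41), a level 1.60-fold lower. The gene was called in 5 of the 6 fits without 1 library. The exception was the fit without DMSO replicate 1, where the log2 fold change was -0.61.

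*TRIB3* (ENSG00000101255; chromosome 20, 362835 to 397559, plus strand) heads the effectors and encodes a pseudokinase that binds ATF4 and CHOP and dampens their output. Its level was 151, 134 and 152 CPM in the DMSO libraries and 76.8, 90.9 and 96.4 CPM in the EZH2i libraries. The groups were apart, with a similar spread in both. Means were 146 ± 10.1 and 88.0 ± 10.1 CPM (SD, n = 3 each). On the log2 scale the fold change was -0.73 (standard error 0.11, 95% interval -0.96 to -0.49), or a level 1.66-fold lower. The value ran from -0.80 to -0.64 over the 6 fits without 1 library, and the gene was called in each.

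*CHAC1* (ENSG00000128965; chromosome 15, 40952962 to 40956512, plus strand) encodes an enzyme that breaks down glutathione. It had 74.0, 50.9 and 74.0 CPM in the DMSO libraries and 61.6, 46.9 and 52.1 CPM in the EZH2i libraries. DMSO replicate 2 lay among the EZH2i libraries, so the groups overlapped. Its log2 fold change was -0.31 (standard error 0.15, 95% interval -0.61 to 0.0009), with -0.47 once DMSO replicate 2 was left out and -0.22 once DMSO replicate 3 was, not called in either fit.

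*DDIT4* (ENSG00000168209; chromosome 10, 72273919 to 72276036, plus strand) encodes REDD1, an inhibitor of the growth kinase complex mTORC1. Its level was 334, 248 and 281 CPM in the DMSO libraries and 203, 212 and 188 CPM in the EZH2i libraries. The groups did not overlap, and the spread was larger in DMSO. Means were 288 ± 43.2 and 201 ± 12.5 CPM (SD, n = 3 each), and the log2 fold change was -0.52 (standard error 0.11, 95% interval -0.76 to -0.27), a level 1.43-fold lower. The call was lost in 3 of the 6 fits: the log2 fold change was -0.40 without DMSO replicate 1, -0.53 without DMSO replicate 3 and -0.47 without EZH2i replicate 3.

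*SESN2* (ENSG00000130766; chromosome 1, 28259518 to 28282491, plus strand) encodes sestrin 2, a leucine sensor that also restrains mTORC1. It had 379, 296 and 463 CPM in the DMSO libraries and 332, 305 and 342 CPM in the EZH2i libraries. The EZH2i libraries lay inside the range of the DMSO libraries, which was set by replicates 2 and 3. The log2 fold change was -0.22 (standard error 0.13, 95% interval -0.50 to 0.06), with -0.05 once DMSO replicate 3 was left out and -0.37 once DMSO replicate 2 was, so the size of the value depended on which DMSO library was left out.

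**Figure D2:**
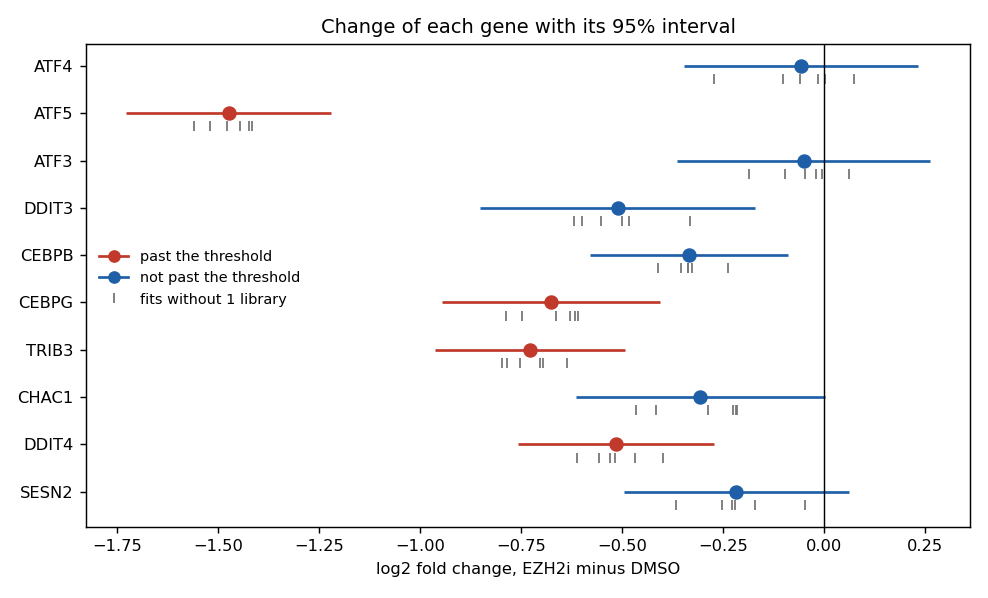
Log2 fold change of each gene, EZH2i minus DMSO (horizontal axis), as a point with its 95% interval, red for genes past the threshold and blue for the others, with gray ticks for the 6 fits that each leave out 1 library. The interval lies below 0 for 6 of the 10 genes, which were selected on this contrast. Among all tested genes 8.21% were lower at an unadjusted p under 0.05 (edgeR), the matching threshold. Ticks on the positive side occur for *ATF4* and *ATF3*.

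The libraries also differed within groups. DMSO replicate 2 was the lowest DMSO library for 8 of the 10 genes and the highest for none, and the median of the 10, taken from each gene's mean log2 CPM over DMSO libraries, was -0.10 there, 0.09 in DMSO replicate 1 and 0.06 in DMSO replicate 3. In EZH2i replicates 1, 2 and 3 the same median was -0.40, -0.39 and -0.45. The EZH2i libraries were thus close together in the median but not gene by gene. EZH2i replicate 1 was the highest EZH2i library for 5 genes, *ATF4*, *ATF5*, *ATF3*, *DDIT3* and *CHAC1*, and the lowest for 3, *CEBPB*, *CEBPG* and *TRIB3*. In EZH2i replicate 3, 5 genes were at their lowest, *ATF4*, *ATF5*, *ATF3*, *DDIT3* and *DDIT4*, and 4 at their highest, *CEBPB*, *CEBPG*, *TRIB3* and *SESN2*. Summed over the 10 genes, the level was 1810, 1550 and 1840 CPM in the DMSO libraries and 1560, 1340 and 1300 CPM in the EZH2i libraries, so EZH2i replicate 1 and DMSO replicate 2 overlapped.

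**Figure D3:**
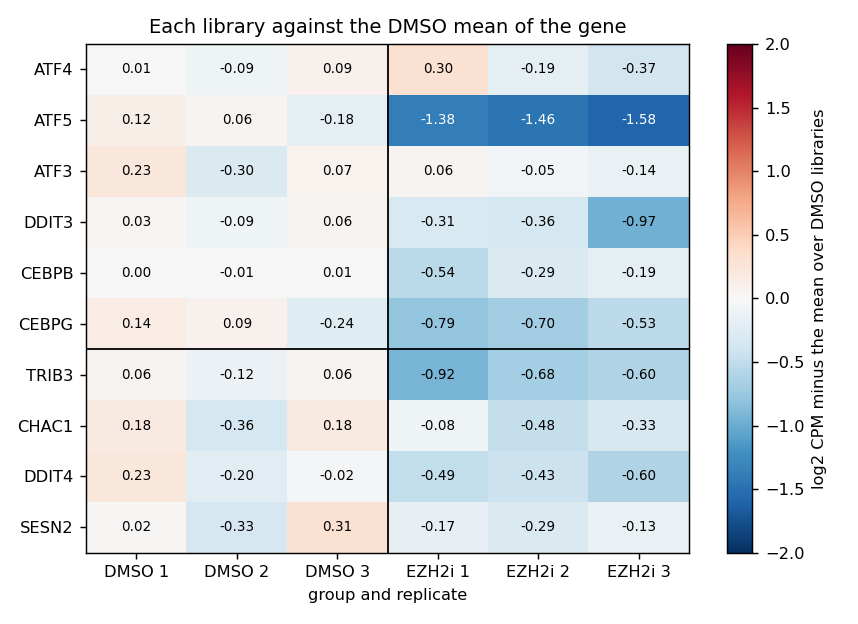
Log2 CPM of each gene (rows) in each library (columns) minus the mean over DMSO libraries of that gene, printed in the cells and coloured from blue (lower) to red (higher). EZH2i replicate 1 holds 0.30 for *ATF4* beside -0.92 for *TRIB3*, and EZH2i replicate 3 holds -0.97 for *DDIT3*.

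Upstream start codons, through which eIF2 phosphorylation can act on translation, were counted in the leader of the MANE Select transcript of each gene. The genes belong to a pathway in which *ATF4* and *ATF5* are known for upstream reading frames. Their counts are thus no independent comparison with other genes. *ATF4* and *DDIT3* had 3 each, *ATF5* and *TRIB3* 2 each, and *CEBPG* and *SESN2* 1 each, while *ATF3*, *CEBPB*, *CHAC1* and *DDIT4* had none. At least 1 was found in 6 of the 10 genes and in 41.9% of 19061 genes with such a transcript, at least 2 in 4 genes and 22.9%, and at least 3 in 2 genes and 14.0%. The leaders ran from 113 bases in *CHAC1* to 410 bases in *TRIB3*, beside a median of 133 bases over all genes, and the shares were not adjusted for leader length. Of the 4 genes called lower, *ATF5*, *TRIB3* and *CEBPG* had an upstream start codon and *DDIT4* had none. RNA counts do not report how these leaders were translated.

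The promoter windows of RefSeq (GRCh38.p14), 250 bases before to 50 after each annotated start, were searched on both strands for 4 elements of stress response promoters. All 10 genes had a window, 19 windows in all. The C/EBP-ATF composite element, searched as TGATGNAA, is the element on which ATF4 pairs with C/EBP factors, and it was found in 3 of the 19 windows and in 3.62% of all 35116 windows. It occurred in *ATF3*, *CEBPG* and *CHAC1*, and these stretches are shown with the element in capitals because they are the places where the letters of the pathway's own element stand near a start. That of *ATF3* begins 191 bases before a start (chr1:212565205-212565234, plus strand), that of *CEBPG* 42 bases before a start (chr19:33374060-33374089, plus strand), and that of *CHAC1* 209 bases before a start (chr15:40953251-40953280, plus strand, the element on the other strand). The stretches of *CEBPG* and *CHAC1* lie inside the spans given above for these genes.
ATF3: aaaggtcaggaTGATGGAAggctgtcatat
CEBPG: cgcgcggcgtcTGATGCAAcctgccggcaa
CHAC1: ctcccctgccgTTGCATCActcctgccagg
Of these 3 genes, *CEBPG* was called lower and the other 2 were not called. The AP-1 element, searched as TGANTCA, was found in 3 windows, 1 of *ATF5* and 2 overlapping windows of *DDIT3* that hold the same site, and in 7.71% of all windows. The *ATF5* site begins 188 bases before a start (chr19:49928707-49928735, plus strand), and the *DDIT3* site 238 bases before a start (chr12:57520738-57520766, minus strand). Both stretches lie inside the span given above for the gene.
ATF5: ggagagtgctgTGACTCAtgctggactct
DDIT3: gcgcgcgcgcaTGACTCAcccacctcctc
The cAMP response element, searched as TGACGTCA, was found in 0 of the 19 windows and in 1.85% of all windows. The ER stress element, searched as CCAAT and CCACG with 9 bases between them, was likewise found in 0 of the 19, beside 0.0769% of all windows. No 2 of the matches overlap, apart from the shared *DDIT3* site. A match is a run of letters and not a measured binding site, and these windows leave out elements that lie farther from a start.

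Other genes of the pathway were taken from lists that do not include the 10 genes. Of all tested genes 0.922% were called lower and 3.34% higher, and no list was tested against those shares. At an unadjusted p under 0.05 stood 19.1% of all tested genes, 8.21% lower and 10.9% higher, and DESeq2 called 0.95% lower and 2.0% higher. In the fits without 1 library the shares ran from 0.158% (without DMSO replicate 2) to 0.973% lower and from 1.41% (without DMSO replicate 1) to 3.23% higher. The 4 lists of ATF4 targets held 40 tested genes, of which 4 were called lower and 1 higher, with a median log2 fold change of -0.21. These counts depended on the library left out and on the tool, as given by list below. In amino acid synthesis and one-carbon metabolism 1 of 12 was called, the mitochondrial folate enzyme gene *MTHFD2*, lower (-0.49, adjusted p = 0.0155, edgeR). The count was 0 without DMSO replicate 1, 2 without EZH2i replicate 1, 3 with DESeq2 and 4 with no filter. At an unadjusted p under 0.05 stood 6, all lower. Of 12 cytosolic aminoacyl-tRNA synthetase genes 2 were called lower, *MARS1* (-0.63, adjusted p = 0.00413, edgeR), which overlaps *DDIT3*, and *IARS1* (-0.55, adjusted p = 0.0281, edgeR). In this list 5 were called lower without EZH2i replicate 1, and 3 with DESeq2, with limma-voom or with no filter. Only 1 was called, *MARS1*, without DMSO replicate 1, DMSO replicate 2 or EZH2i replicate 2. Among 8 other targets, the secreted factor genes *STC2* (-0.91, adjusted p = 0.0131, edgeR) and *GDF15* (0.56, adjusted p = 0.0199, edgeR) were called in opposite directions. The call of *STC2* was lost without DMSO replicate 1 or 3. That of *GDF15* was lost without DMSO replicate 2, DMSO replicate 3 or EZH2i replicate 2. Of 8 amino acid transporters 0 were called by edgeR or limma-voom, 1 by DESeq2 and 3 at an unadjusted p under 0.05, all lower; the most abundant, *SLC1A5*, stood at -0.44 (adjusted p = 0.053, edgeR), and it was called with DESeq2, with no filter, with the replicate block and without DMSO replicate 1. *SLC7A11* (adjusted p = 0.0894 with all libraries, edgeR) was called lower with no filter and without EZH2i replicate 3, where it stood at -0.59 (adjusted p = 0.0254, edgeR).

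Upstream of ATF4, 0 of 16 genes for the eIF2 kinases, eIF2B and their control were called by edgeR, DESeq2 or limma-voom. An unadjusted p under 0.05 was found for 2, each lower, beside 8.21% of all tested genes on the lower side. Below 0 stood 14 of the 16. The most abundant, *EIF2AK1*, which encodes the heme-regulated kinase, stood at -0.13 on the log2 scale (adjusted p = 0.536, edgeR), at -0.05 without EZH2i replicate 1 and at -0.20 without EZH2i replicate 2. Among paralogs of the effectors 0 of 5 were called by these tools. An unadjusted p under 0.05 was found for 2, each higher, beside 10.9% of all tested genes on the higher side. *TRIB2* had 0.14 (adjusted p = 0.514, edgeR), from 0.07 (DMSO replicate 2 left out) to 0.23 (DMSO replicate 3 left out). Of 33 other bZIP factors 2 were called higher, beside 3.34% of all tested genes. They were *BACH1* (0.44, adjusted p = 0.0365, edgeR) and *JUND* (0.37, adjusted p = 0.0344, edgeR), neither of them called with the replicate block. The list had a median of 0.03, that of the paralogs one of 0.14 and that of eIF2 control one of -0.12.

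In neighbouring pathways, 0 of 20 ER chaperone and folding genes under ATF6 and XBP1 were called by these 3 tools. An unadjusted p under 0.05 was found for 3, all lower, beside 8.21% of all tested genes on the lower side. Below 0 stood 18 of the 20. In 6 of them every EZH2i library lay under every DMSO library, as in 11.1% of all tested genes. *CANX* had -0.14 (adjusted p = 0.501, edgeR), or -0.06 without EZH2i replicate 3 and -0.25 without EZH2i replicate 1. *MANF*, at -0.35 in the main fit, was called lower with no filter. Of 9 mitochondrial chaperones and proteases 3 were called lower, beside 0.922% of all tested genes: *DNAJA3* (-0.49, adjusted p = 0.0415, edgeR), *HSPA9* (-0.48, adjusted p = 0.0136, edgeR) and *LONP1* (-0.42, adjusted p = 0.0227, edgeR). Of these 9 genes 0 were called without DMSO replicate 1, without DMSO replicate 3 or without EZH2i replicate 3. The 3 genes encode a co-chaperone, a chaperone and a protease of the mitochondrial matrix. A link of their values to that of *ATF5* was not tested. Below 0 stood 7 of the 9 genes. Of 24 genes of mTORC1 and its amino acid sensing, the complex that *DDIT4* and *SESN2* restrain, 0 were called by these tools. An unadjusted p under 0.05 was found for 1, lower. *LAMTOR5* had 0.05 (adjusted p = 0.86, edgeR), from -0.06 without EZH2i replicate 1 to 0.10 without EZH2i replicate 3. *MTOR*, at -0.39 with all libraries, was called lower without EZH2i replicate 1 and with no filter, where *RRAGD* was called higher. Of 15 p53 targets 4 were called higher, beside 3.34% of all tested genes: *CDKN1A* (0.95, adjusted p = 6.93e-05, edgeR), *TP53INP1* (0.67, adjusted p = 0.0199, edgeR), *FDXR* (0.58, adjusted p = 0.0177, edgeR) and *BTG2* (0.55, adjusted p = 0.0361, edgeR). *CDKN1A* encodes the cell cycle inhibitor p21. Of 10 immediate early and heat shock genes 1 was called higher, *EGR1* (0.74, adjusted p = 0.0334, edgeR), beside the same 3.34%. The medians were -0.17 for the ER list, -0.15 for the mitochondrial list, 0.0027 for mTORC1, 0.09 for the p53 targets and 0.15 for the immediate early and heat shock genes. Of the 15 called genes of these 12 lists, *MARS1* and *CDKN1A* were called in all 6 fits without 1 library. For the other 13 the highest adjusted p in those fits ran from 0.0789 (*STC2*, without DMSO replicate 3) to 0.19 (*DNAJA3*, without DMSO replicate 1; edgeR). The calls of *BACH1* and *EGR1* were also lost with DESeq2, that of *BACH1* with no filter and that of *DNAJA3* with limma-voom. Without EZH2i replicate 3, 5 genes of the lists were called lower, *SLC7A11* newly among them, and 4 higher, in place of 7 and 8; the p53 targets kept 3 of their 4 calls, and the bZIP factors and the immediate early and heat shock genes kept 0. The p53 targets had 1 call without DMSO replicate 1 and 2 without DMSO replicate 2 or EZH2i replicate 2. They had 3 without DMSO replicate 3 and 5 without EZH2i replicate 1, all higher.

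**Figure D4:**
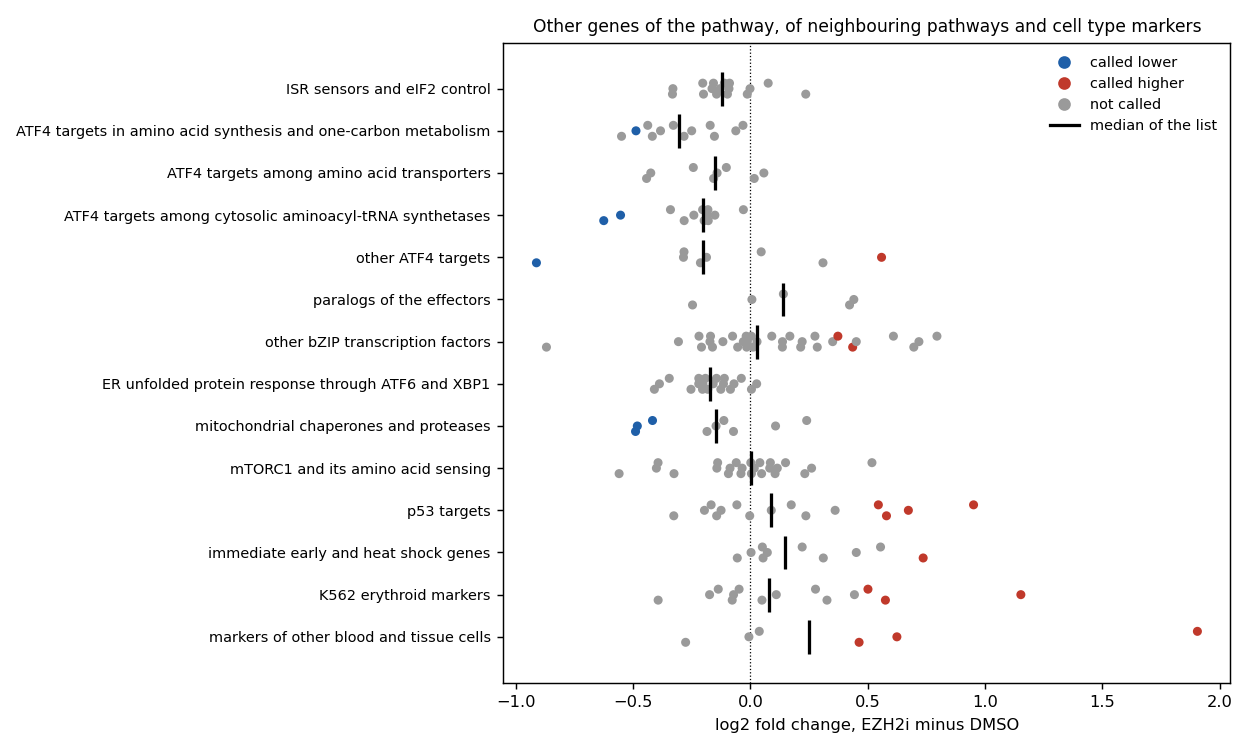
Log2 fold change, EZH2i minus DMSO (horizontal axis), of every tested gene of each list (points), blue where called lower, red where called higher and gray otherwise, with a black line at the median of the list. The 4 lists of ATF4 targets have medians from -0.31 to -0.15, and 4 of the p53 targets are called higher.

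The transcripts of the inhibited enzyme complex were not called: the log2 fold change of *EZH2* was -0.19 (adjusted p = 0.306, edgeR), that of *EED* -0.33 (adjusted p = 0.178, edgeR; -0.17 without EZH2i replicate 1) and that of *SUZ12* -0.05 (adjusted p = 0.858, edgeR; from -0.11 without DMSO replicate 2 to 0.01 without DMSO replicate 1, and 0.0089 without EZH2i replicate 3). GSK343 acts on the enzyme's activity, so these levels do not check the labels.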

How the data were processed

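Libraries were prepared with a three-prime kit that keeps strand. The authors aligned reads to hg38 and counted them per Ensembl gene, and the deposited files hold raw counts for each library; their processing notes name STAR 2.6.0c, HTSeq 0.11.2 and DESeq2, and the strand setting is not given in the sources used here. A deposited table of the authors' own comparison, with fold changes and p-values, was not used. Rows that name no gene held from 32.1% to 36.4% of listed reads and were left out.

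Gene symbols and exons came from GENCODE version 44, which matched 60401 of 60671 identifiers. The 12364 genes passing filterByExpr (minimum count 10) were tested in R 4.3.3 with edgeR 4.0.16 (TMM, glmQLFit, glmQLFTest, group only, two-sided), and p-values were adjusted over all of them by Benjamini-Hochberg, with calls under 0.05. Standard errors were taken as the absolute log2 fold change over the root of the F statistic. The code was tested on simulated data. Alternatives were DESeq2 1.42.0, limma-voom (limma 3.58.1), RLE and upper quartile factors, 2 other filters, a replicate block and leaving out each library. Replicates of a group differed by more than sampling noise (chi-square per degree of freedom 4.56 to 12.7), so none was counted as a copy. For 1 gene alone, permuting 3 libraries against 3 gives no exact p under 0.1.

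The genes and lists were chosen with earlier results of these data known. Named are the 10 genes, *EZH2*, *EED* and *SUZ12*, genes whose exons overlap those of the 10, the called genes of each list (the 4 with the largest absolute log2 fold change where over 6 are called) and, of a list with none called, the gene with the highest mean CPM (the most abundant). List genes not called with all libraries but called without EZH2i replicate 3 are named too, as is *HBG1*, the copy of a called marker. In lists with none called, genes called under any alternative are named as well. Figures were drawn with matplotlib 3.10.9.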

Additional observations from a re-analysis of the deposited data

How the results depend on the processing

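In place of 527 genes called, 114 lower and 413 higher, 928 were called with no filter on counts (349 lower, 1.33%, and 579 higher, 2.21%), 428 with DESeq2 (138 lower, 290 higher), and from 209 to 536 in the fits without 1 library. Lower calls there ran from 20 (without DMSO replicate 2, 0.158% of genes tested) to 124 (without EZH2i replicate 1, 0.973%), with 33 without DMSO replicate 1 (0.258%), 55 without DMSO replicate 3 (0.434%), 79 without EZH2i replicate 2 (0.626%) and 104 without EZH2i replicate 3 (0.82%). Higher calls ran from 180 to 189 without a DMSO library (1.41% to 1.49%) and from 320 to 412 without an EZH2i library (2.54% to 3.23%). Of the 10 ATF4 pathway genes, 4 were called in the fit of all libraries and from 2 to 5 without 1 library; the 2 were found without DMSO replicate 1. *DDIT3* was added to the 4 without a filter and without EZH2i replicate 1. The median log2 fold change of the 10 genes ran from -0.51 (without DMSO replicate 2) to -0.37, and under the other alternatives from -0.45 to -0.41. In the lists of the pathway and its neighbours, 15 genes were called, 24 without a filter, and from 4 to 22 without 1 library. The cause was not tested.

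Values that changed sign without 1 library were all from genes not called, and over those fits they ran from -0.2738 to 0.0738 for *ATF4* (0.0025 and 0.0738 without EZH2i replicates 2 and 3), from -0.1854 to 0.06 for *ATF3* (0.06 without DMSO replicate 1), from -0.057 to 0.0994 for *LAMTOR5* (-0.0022 and -0.057 without DMSO replicate 1 and EZH2i replicate 1), from -0.1145 to 0.0112 for *SUZ12* (0.0112 and 0.0089 without DMSO replicate 1 and EZH2i replicate 3) and from -0.1977 to 0.0835 for *MBD6* (0.0835 and 0.0041 without DMSO replicate 2 and EZH2i replicate 1).

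Replicate numbers did not pair the libraries: libraries of the same number deviated from their group means with correlations of -0.0511, -0.0175 and -0.017, and 0 of 6 libraries correlated best with their own number. With a replicate block 599 genes were called, 149 lower (1.21% of genes tested) and 450 higher (3.64%). Among them were 4 of the 10 ATF4 pathway genes, all lower, and 15 genes of the lists, 9 lower and 6 higher. The median of the 10 was -0.42.

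All libraries come from 1 clone with the fusion induced. Adjusted p-values set each difference against the spread between 3 cultures a group, estimated with information from all tested genes. In a bulk culture, fewer cells that express a gene and less RNA per cell cannot be told apart.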
